A study of Rattus norvegicus with 9 samples.

Results

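The genes described here are 31 genes of the integrated stress response, each known as ATF4 itself, a regulator that works beside it, or a target of it. They were taken as a list of gene symbols by known function, with earlier results of these data known. They make up 31 of the 36856 genes in the tables, and 30 of them were among the 14706 genes with enough reads to be tested. By role they comprise 10 regulators, 9 enzymes of amino acid and one-carbon synthesis, 5 amino acid transporters and 7 aminoacyl-tRNA synthetases.

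The integrated stress response starts when a kinase phosphorylates the translation initiation factor eIF2, which slows most protein synthesis. Translation of ATF4, a bZIP transcription factor, then increases, because upstream reading frames in its mRNA no longer hold it back. ATF4 pairs with C/EBP-family partners and activates genes that make amino acids, import them and load them on tRNA; with prolonged stress it also activates Ddit3, which encodes the pro-apoptotic factor CHOP. Since ATF4 is controlled largely at translation, its mRNA level says little by itself about the amount of ATF4 protein, which was not measured here.

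RNA was sequenced from H9c2(2-1), a cell line from embryonic BD1X rat heart that is labelled as myoblast with a wild-type (WT) genotype. In the ESW group, cells received energized structured water (ESW) diluted to 0.01 in the medium for 72 h, with fresh medium every 24 h. In the CW group, cells received control water (CW) at the same dilution, duration and medium schedule. The Control cells were kept in normal growth medium with no added water, and the labels give no duration for them. Each group has 3 libraries of the same line, and all groups carry the same genotype. Whether the 3 came from separate cultures is not stated in the labels, so every p-value reflects the spread among these libraries alone, and that spread may be technical.

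The 9 libraries held 26748673 to 48574618 estimated reads, and 13913 to 15002 genes had at least 10 reads. Of 8 muscle markers, 6 reached 1 TPM (transcript abundance corrected for transcript length and library total) in at least 1 library. Vim ran from 2753 to 3164 TPM and Myod1, a master regulator of skeletal muscle fate, from 7.65 to 11.4 TPM. The muscle markers Myf5 and Myh3 stayed under 1 TPM everywhere. Of 5 heart muscle cell markers, 4 stayed under 1 TPM, and Tnni3 reached at most 2.95 TPM. Tnnt2, the cardiac troponin T gene, was counted among the muscle markers and ran from 58.9 to 74.7 TPM. No endothelial marker of 3 and no blood marker of 3 reached 1 TPM, whereas 1 of 3 epithelial markers did, Krt8 at 44.5 to 57.6 TPM. Summed muscle markers were 3070 to 3290 TPM in ESW cells, 2940 to 3040 TPM in CW cells and 2860 to 3120 TPM in Control cells. Vim made up most of each sum, so the sum mainly shows the level of Vim. The muscle markers Des and Myog were low, at 2.97 to 5.28 and 2.55 to 4.49 TPM. Mean Des was 3.59 TPM in ESW cells, 3.96 TPM in CW cells and 4.55 TPM in Control cells. By the test described below, Vim was called higher in ESW than in Control cells and Acta1 higher in ESW than in CW cells. The part of these differences in the results below was not tested. In bulk RNA, fewer cells expressing a gene and less of its RNA per cell cannot be told apart.

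C/EBP-ATF response elements, which ATF4 binds together with a C/EBP partner, share the core TGATGNAA. It was sought on both strands in RefSeq promoter sequences of the assembly GRCr8, from 250 bases before to 50 bases after each annotated start. Of the 28 list genes with a promoter sequence, 9 (32.1%) held at least 1 match. The same core stood in 317 of the 12028 tested genes with a promoter (2.64%) and in 1141 of all 27457 genes with one (4.16%). The full element TGATGCAA, counted after the data had been seen and a special case of that core, stood in 7 of the 28 (25.0%), in 92 of the tested genes (0.765%) and in 227 of all genes (0.827%). By role the core was found in 3 of 10 regulators, 1 of 8 synthesis enzymes, 2 of 4 transporters and 3 of 6 synthetases. The genes were listed as known ATF4 targets, so that this share describes the list and not the treatments. The 30 bases around the match are shown for 8 of these genes, so that each match can be read in place. They run 5′ to 3′ along the gene's strand, with the core in capitals as it reads there, so that TTGCATCA is TGATGCAA on the opposite strand.
Chac1, chr3:126795953-126795982, plus strand: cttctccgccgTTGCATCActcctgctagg
Nupr1, chr1:190645938-190645967, minus strand: aaaaggccagaTTGCATCAgacagggcttg
Trib3, chr3:161275536-161275565, minus strand: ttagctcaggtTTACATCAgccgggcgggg
Pycr1, chr10:106420925-106420954, minus strand: ggtcctgtgtaTGATGCAAtgtacaaggct
Slc1a4, chr14:98761779-98761808, minus strand: cgcctccagcgTTGCATCAtccagccagca
Slc7a1, chr12:11664447-11664476, plus strand: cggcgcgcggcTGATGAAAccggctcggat
Cars1, chr1:208225334-208225363, minus strand: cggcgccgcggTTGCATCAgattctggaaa
Nars1, chr18:60275778-60275807, minus strand: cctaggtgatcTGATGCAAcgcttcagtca
Except for that of Cars1, which lies after the annotated start, the cores shown stand 14 to 235 bases before it. Those of Trib3 and Slc7a1 match the core but not the full element. A match is not evidence of binding, and no match says only that these letters are not in that window.

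**Figure D1:**
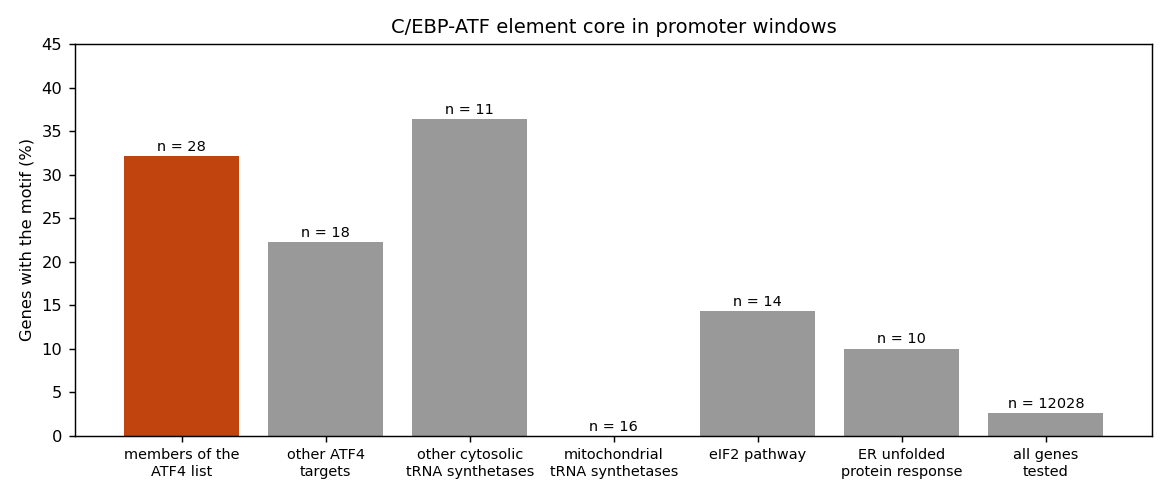
Share of genes (percent, vertical axis) whose promoter window holds the core TGATGNAA on either strand, with n the genes that have a window, for the list, 5 related gene lists and all tested genes. The list stands at 32.1%, against 2.64% of the tested genes, and the other cytosolic synthetases at 36.4%.

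The list was expressed in all groups, most of it well above the typical gene. Levels between genes are compared in TPM. In Control cells the highest were Atf4 at 808.8 ± 15.5 TPM (SD, n = 3), the related factor Atf5 at 787.5 ± 43.5 TPM and Nupr1, a small stress-induced chromatin protein, at 695.7 ± 32.1 TPM. Atf4 ranked 187 among the tested genes, at or above 98.7% of them. Atf4 and Atf5 did not differ beyond their spread. Among the synthetases Sars1, Aars1 and Eprs1, at 224.3, 220.6 and 213.3 TPM, also lay within their spread of each other. The lowest tested were Mthfd1l, an enzyme of mitochondrial one-carbon metabolism, at 19.9 TPM and Ddit4, an inhibitor of mTORC1, at 19.5 TPM. These lay at or above 61.1% and 60.6% of the tested genes. Gdf15, which encodes a secreted stress cytokine, had almost no reads. Its reads in ESW cells were 0, 4 and 3, in CW cells 5, 2 and 4, and in Control cells 3, 0 and 1. That is 22 reads in all libraries together, at or near the floor of 3 reads per library used here for detection, and no comparison is made.

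**Figure D2:**
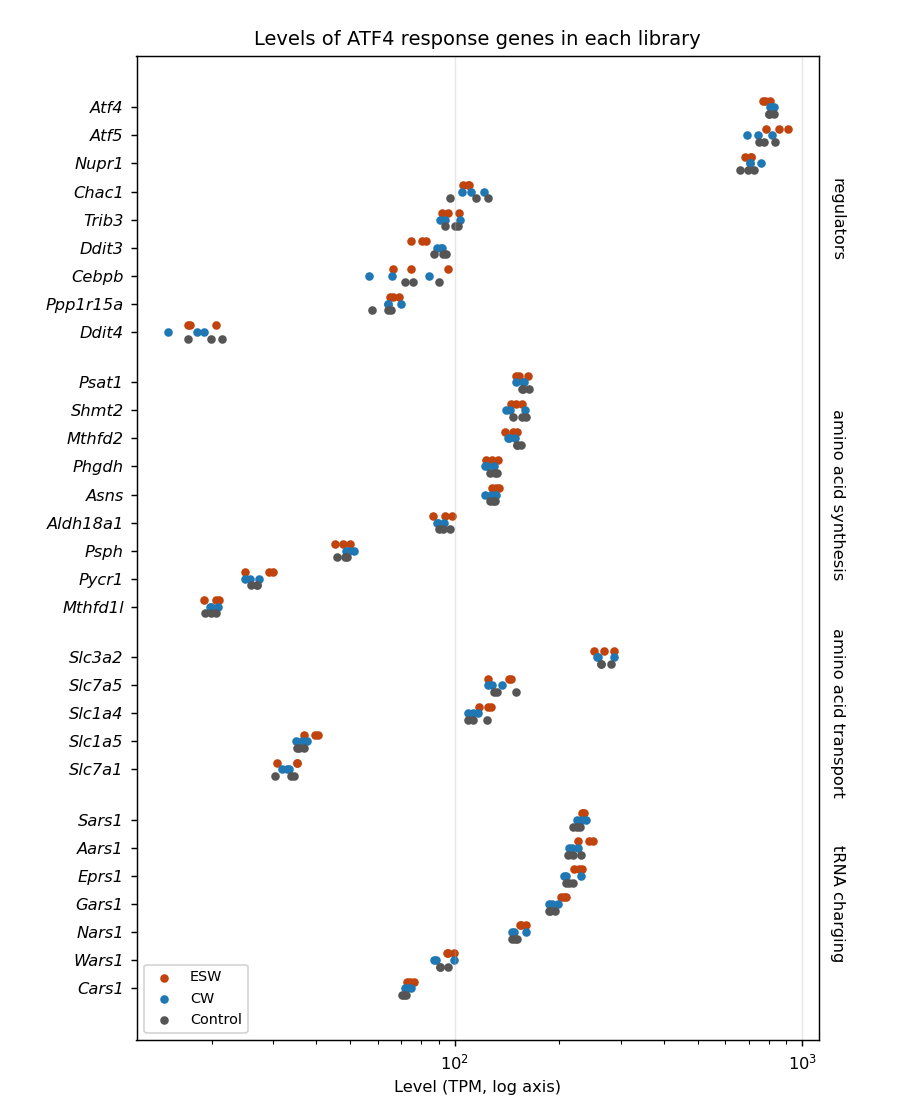
Level of each of the 30 tested list genes in TPM (log axis) in every library, with points for the 3 libraries of ESW, CW and Control. Atf4, Atf5 and Nupr1 lie highest, at 662.2 to 908.9 TPM over the libraries, and Ddit4 and Mthfd1l lowest, at 14.9 to 21.4 TPM.

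ESW cells differed from Control cells in 3 of the 30 tested genes. Ddit3 was lower, and the neutral amino acid transporters Slc1a4 and Slc1a5 were higher. That is 10.0% of the list, against 8.04% of all tested genes called in this comparison, so the list's share is near the background. The 2 higher genes compare with 4.76% of all genes called higher, and the 1 lower gene with 3.28% called lower. A gene is called at an adjusted p under 0.05 by edgeR's quasi-likelihood test, with Benjamini-Hochberg adjustment over all tested genes. Levels of single genes are given in CPM, read counts relative to library totals that were scaled by TMM, the scale on which the test works. At an unadjusted p under 0.05 there were 9 of the 30 genes, where 3357 of the 14706 tested genes had such a p. The median log2 difference over the list was 0.03, against -0.01 over all genes. In 19 of 30 genes the difference was above 0, where 47.4% of all tested genes were above 0. In 9 genes the 3 ESW libraries did not overlap the 3 Control libraries (30.0%, against 25.6% of all tested genes). Of these, 6 were higher and 3 lower, against 13.3% and 12.4% of all genes.

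Against CW cells, ESW cells again differed in 3 of 30 genes. Atf5 and Slc1a4 were higher and Ddit3 was lower. The list's 10.0% stands against 8.14% of all tested genes, 4.15% called higher and 3.99% called lower. At an unadjusted p under 0.05 there were 8 of the 30 genes, where 3514 of the 14706 tested genes had such a p. The median log2 difference was 0.03 over the list and -0.002 over all genes. In 23 of 30 genes the difference was above 0, where 49.5% of all tested genes were above 0. The libraries of ESW and CW did not overlap in 8 genes (26.7%, against 28.3% of all tested genes), 6 higher and 2 lower, against 14.9% and 13.4% of all genes. Both comparisons use the same ESW libraries, so they are not independent of each other.

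CW cells against Control cells gave 0 called genes of 30 by edgeR, where 0.177% of all tested genes were called, 0.0272% higher and 0.15% lower. No gene of the list had an unadjusted p under 0.05 either, where 1452 of the 14706 tested genes did. DESeq2 and limma-voom also called 0 of the list. The log2 differences ran from -0.15 for Ddit4 to 0.06 for Psph, with a median of -0.01 over the list and 0 over all genes. In 11 of 30 genes the difference was above 0 and in 19 below, where 49.8% of all tested genes were above 0. The 95% intervals of the 30 genes all lay between -0.34 and 0.22. CW and Control libraries did not overlap in 3 genes (10.0%, against 14.7% of all tested genes), 1 higher and 2 lower, against 7.13% and 7.56% of all genes.

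All 6 calls missed the threshold when transcript length was treated in another way. With offsets for the effective length of each gene's transcripts in each library, edgeR called 0 of the 30 genes in every comparison, while 440 of all genes were still called in ESW against Control. The log2 fold change of Atf5 against CW was 0.18 with offsets and 0.17 without. Those of Ddit3 were -0.21 with offsets and -0.28 without against Control, and -0.20 and -0.22 against CW. Those of Slc1a4 were 0.08 with offsets and 0.15 without against Control, and 0.12 and 0.15 against CW, and that of Slc1a5 against Control was 0.11 and 0.16. The offsets rest on the deposited effective lengths, which exceeded the transcript length for 21.5% of transcripts in Control replicate 1. Without offsets the counts take no account of shifts in which transcripts of a gene were read, or of library-wide differences in effective length.

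**Figure D3:**
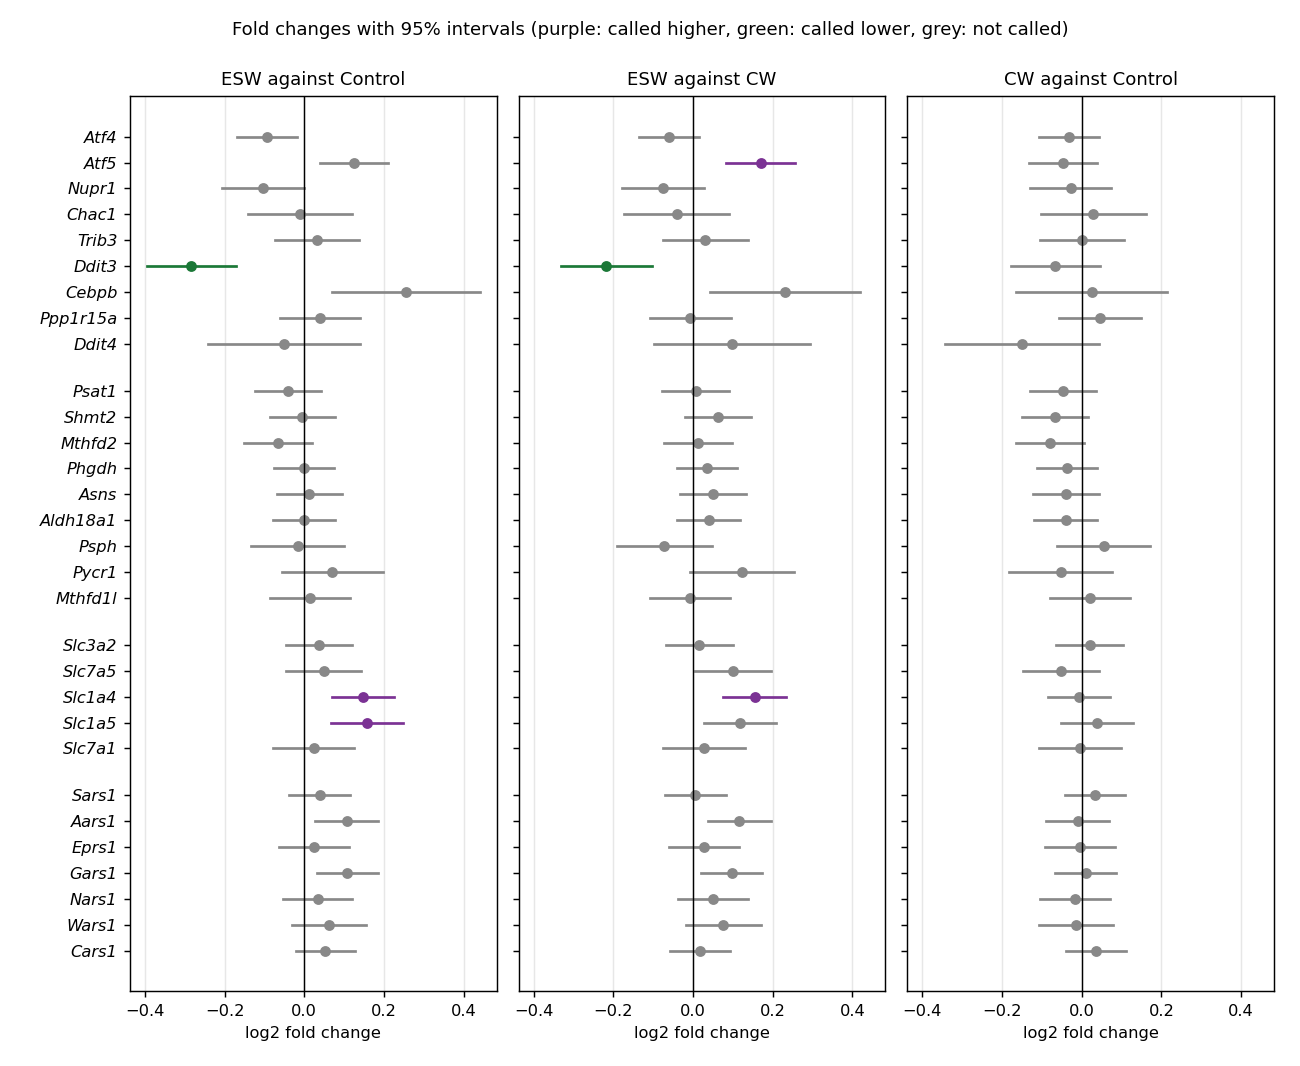
Log2 fold change of each tested gene with its 95% interval for each of the 3 comparisons, ordered by role; purple marks genes called higher and green genes called lower. Ddit3 is lowest in both ESW comparisons, at -0.28 and -0.22, and no gene is coloured in CW against Control.

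Of the 9 tested regulators, 5 had an unadjusted p under 0.05 in ESW against Control and 3 in ESW against CW. Of the 14706 tested genes, 3357 and 3514 had such a p in that order. Among the regulators, Ddit3 was lower in ESW cells than in either other group. Its levels were 35.2, 35.8 and 32.5 CPM in ESW cells, 41.2, 39.7 and 39.5 CPM in CW cells, and 39.6, 43.4 and 42.9 CPM in Control cells. Every ESW library lay below every other library, while CW and Control libraries overlapped. Against Control the log2 fold change was -0.28 ± 0.05 (SE, n = 3 against 3; adjusted p = 0.00331 by edgeR), a fold of 0.822. Against CW it was -0.22 ± 0.05 (adjusted p = 0.0194 by edgeR), a fold of 0.860. CW against Control gave -0.07, with a 95% interval of -0.18 to 0.05 (adjusted p = 0.754 by edgeR). In TPM the ESW libraries, at 82.7, 80.5 and 74.9, also lay below every CW and Control library, at 87 to 94.6.

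The Ddit3 call against Control was kept whichever single library was left out, with adjusted p-values of 0.0011 to 0.029 by edgeR. The call against CW was lost without ESW replicate 3 and without each of CW replicates 1, 2 and 3 in turn, where the adjusted p reached 0.107. With length offsets the log2 fold changes were -0.21 against Control (adjusted p = 0.0502 by edgeR) and -0.20 against CW (adjusted p = 0.0554). Ddit3 has 2 transcripts, of 813 and 861 bases, and the shorter one, NM_024134.2, carried a changing share of its TPM. That share was 27.6%, 33.1% and 32.7% in ESW cells, 27.2%, 24.8% and 27.7% in CW cells, and 20.6%, 21.7% and 24.6% in Control cells. The ESW and CW shares each lay above all Control shares, although Ddit3 was not called in CW against Control, and their part in the gene-level difference was not tested.

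Atf5, a close relative of ATF4 that is likewise translated under stress, was higher in ESW than in CW cells. It had 723.6, 752.1 and 739.0 CPM in ESW cells, 686.3, 614.2 and 668.9 CPM in CW cells, and 695.0, 676.6 and 661.3 CPM in Control cells. Every ESW library was above every other. Against CW the log2 fold change was 0.17 ± 0.04 (SE, n = 3 against 3; adjusted p = 0.0155 by edgeR). Against Control it was 0.12, with a 95% interval of 0.04 to 0.21 (adjusted p = 0.0682 by edgeR, not called; 0.0286 by DESeq2). The call against CW was lost without ESW replicate 2, ESW replicate 3 or CW replicate 2, with adjusted p up to 0.104, and with length offsets, at 0.068, where the log2 fold change was 0.18. In TPM the groups overlapped, with 784.8, 908.9 and 857.2 in ESW cells, 816.2, 691.7 and 745.1 in CW cells, and 836.2, 773.9 and 752.6 in Control cells.

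Atf4 itself was called in no comparison. It had 555.0, 551.9 and 525.6 CPM in ESW cells, 564.0, 559.2 and 580.0 CPM in CW cells, and 573.1, 592.2 and 575.8 CPM in Control cells. Each ESW library lay below each library of the other groups, by small margins. The log2 difference was -0.09 against Control, with a 95% interval of -0.17 to -0.02 (adjusted p = 0.120 by edgeR), and -0.06 against CW, with an interval of -0.14 to 0.01 (adjusted p = 0.321). The intervals reached no further from 0 than -0.17. In TPM the ESW libraries, at 769.3 to 804.9, overlapped the Control libraries, at 799.3 to 826.7, but not the CW libraries, at 807.9 to 827.9.

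Cebpb, which encodes a C/EBP partner of ATF4, was not called, and its replicates were widely spread in CW and Control cells. Its levels were 27.9, 27.6 and 25.0 CPM in ESW cells, 26.4, 23.1 and 19.5 CPM in CW cells, and 25.1, 22.1 and 20.4 CPM in Control cells. The groups overlapped. The log2 difference was 0.26 against Control, with a 95% interval of 0.07 to 0.44 (adjusted p = 0.0839 by edgeR), and 0.23 against CW, with an interval of 0.04 to 0.42 (adjusted p = 0.120). With length offsets the difference against Control was -0.02 (adjusted p = 0.968), and mean TPM was 78.9 in ESW cells and 79.1 in Control cells. Without a filter on low counts Cebpb was called higher against Control (adjusted p = 0.00584 by edgeR) and against CW (adjusted p = 0.0159).

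The remaining regulators showed no called difference. Nupr1 had log2 differences of -0.10 against Control, with a 95% interval of -0.21 to 0.00 (adjusted p = 0.212 by edgeR), and -0.08 against CW (adjusted p = 0.375). Trib3, a pseudokinase that feeds back on ATF4 and CHOP, had 71.2, 67.2 and 62.8 CPM in ESW cells, 68.9, 65.0 and 63.3 CPM in CW cells, and 64.9, 68.2 and 63.9 CPM in Control cells. Its log2 difference was 0.03 against both. Chac1, an enzyme that degrades glutathione, differed by -0.01 against Control and -0.04 against CW. Ppp1r15a, the GADD34 subunit that directs a phosphatase to eIF2, differed by 0.04 against Control and -0.01 against CW. Ddit4 differed by -0.05 against Control, with an interval of -0.24 to 0.14, and 0.10 against CW, with an interval of -0.10 to 0.29, intervals wider than those of most listed genes.

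The 9 synthesis enzymes gave 0 calls in all 3 comparisons by edgeR. Of all tested genes 8.04% were called in ESW against Control, 8.14% in ESW against CW and 0.177% in CW against Control. Against Control, 3 of 9 lay above 0, where 47.4% of all tested genes did. The log2 differences of the 9 ran from -0.07 for Mthfd2 to 0.07 for Pycr1. The 95% intervals of all 9 lay between -0.15 and 0.20. Against CW, 7 of 9 lay above 0, where 49.5% of all tested genes did. The differences ran from -0.07 for Psph to 0.12 for Pycr1, with intervals between -0.19 and 0.25. None of the 9 had an unadjusted p under 0.05 in any of the 3 comparisons, and DESeq2 and limma-voom called 0 as well. Of the 14706 tested genes, 3357 had such a p in ESW against Control, 3514 in ESW against CW and 1452 in CW against Control.

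Asns, asparagine synthetase and a classical ATF4 target, had 140.9, 147.0 and 140.5 CPM in ESW cells, 141.0, 131.9 and 140.9 CPM in CW cells, and 142.1, 143.0 and 139.7 CPM in Control cells. The groups overlapped, and the log2 difference was 0.01 against Control, with a 95% interval of -0.07 to 0.09 (adjusted p = 0.889 by edgeR), and 0.05 against CW. Phgdh, the first enzyme of serine synthesis, had 148.8, 148.0 and 148.6 CPM in ESW cells, 147.8, 142.1 and 144.8 CPM in CW cells, and 147.0, 151.5 and 147.4 CPM in Control cells. Psat1 and Psph, the next 2 steps, differed by -0.04 and -0.02 against Control. Shmt2, which passes the carbon of serine to folate in mitochondria, differed by 0.00 against Control and 0.06 against CW.

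Mthfd2, the mitochondrial folate enzyme that follows, had 168.2, 168.1 and 153.3 CPM in ESW cells, 163.6, 157.9 and 163.8 CPM in CW cells, and 171.5, 169.7 and 171.5 CPM in Control cells. In CPM both water groups lay below Control in every library, without passing the test. In TPM the ESW libraries, at 146.8, 151.3 and 139.3, overlapped the Control libraries, at 154.8, 150.6 and 151.0. The log2 difference was -0.07 for ESW against Control (adjusted p = 0.353 by edgeR) and -0.08 for CW against Control (adjusted p = 0.545). Mthfd1l differed by 0.01 in ESW against Control. The proline enzymes Aldh18a1 and Pycr1 differed by 0.00 and 0.07 against Control and by 0.04 and 0.12 against CW.

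Among the 5 transporters, 2 were called higher in ESW than in Control cells and 1 higher in ESW than in CW cells. Of all tested genes 4.76% were called higher against Control and 4.15% against CW. All 5 log2 differences were above 0 in both comparisons, with medians of 0.05 and 0.10, where 47.4% and 49.5% of all tested genes were above 0. At an unadjusted p under 0.05 there were 2 against Control and 3 against CW, where 3357 and 3514 of the 14706 tested genes had such a p. Slc1a4 (ASCT1), a carrier of alanine, serine, cysteine and threonine, had 280.8, 287.9 and 285.2 CPM in ESW cells, 259.0, 255.5 and 252.8 CPM in CW cells, and 268.4, 250.1 and 252.6 CPM in Control cells. Every ESW library lay above every other library. The log2 fold change was 0.15 ± 0.04 against Control (SE, n = 3 against 3; adjusted p = 0.0192 by edgeR) and 0.15 ± 0.04 against CW (adjusted p = 0.0157), folds of 1.11 in both. CW against Control gave -0.01, with a 95% interval of -0.09 to 0.07.

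The Slc1a4 call against Control was lost without ESW replicate 2, ESW replicate 3, Control replicate 2 or Control replicate 3, with adjusted p up to 0.0992. The call against CW was lost without ESW replicate 2, ESW replicate 3, CW replicate 2 or CW replicate 3, with adjusted p up to 0.0768. With length offsets the differences were 0.08 against Control (adjusted p = 0.309) and 0.12 against CW (adjusted p = 0.106). In TPM the ESW libraries, at 117.1, 124.9 and 126.9, lay above the CW libraries, at 116.8, 113.1 and 109.3, but overlapped the Control libraries, at 123.8, 109.3 and 112.7.

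Slc1a5 (ASCT2), the main glutamine carrier of many dividing cells, had 52.9, 52.2 and 53.6 CPM in ESW cells, 49.8, 48.7 and 47.8 CPM in CW cells, and 47.6, 47.6 and 47.2 CPM in Control cells. In CPM no group overlapped another, and the 3 groups stood in the order ESW, CW, Control. In TPM the ESW libraries, at 36.8 to 40.3, overlapped the CW libraries, at 35.0 to 37.5, and those overlapped the Control libraries, at 35.2 to 36.8. Only the ESW difference from Control passed the test, at 0.16 ± 0.04 (SE, n = 3 against 3; adjusted p = 0.0300 by edgeR). Against CW it was 0.12, with a 95% interval of 0.03 to 0.21 (adjusted p = 0.0999). The call was lost without any 1 of the 3 ESW replicates, without Control replicate 2 and without Control replicate 3, with adjusted p up to 0.129, with length offsets, at 0.204, and without a filter on low counts, at 0.0585.

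The other transporters were not called. Slc7a5, the light chain of the leucine carrier LAT1, had 255.8, 269.4 and 277.6 CPM in ESW cells, 257.6, 238.8 and 252.9 CPM in CW cells, and 275.6, 247.3 and 253.5 CPM in Control cells. It differed by 0.05 against Control and by 0.10 against CW, with a 95% interval of 0.00 to 0.20 (adjusted p = 0.186 by edgeR). Its heavy chain Slc3a2 differed by 0.04 and 0.02, and the arginine and lysine carrier Slc7a1 by 0.02 and 0.03.

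The 7 aminoacyl-tRNA synthetases, which load amino acids on their tRNAs, gave 0 calls in all 3 comparisons by edgeR. Of all tested genes 8.04% were called in ESW against Control, 8.14% in ESW against CW and 0.177% in CW against Control. All 7 log2 differences were above 0 in ESW against Control and in ESW against CW, where 47.4% and 49.5% of all tested genes were above 0. The differences were small, with a median of 0.05 in both and maxima of 0.11 and 0.12. At an unadjusted p under 0.05 there were 2 genes in each ESW comparison, Aars1 and Gars1, and 0 in CW against Control. Of the 14706 tested genes, 3357 had such a p in ESW against Control, 3514 in ESW against CW and 1452 in CW against Control. DESeq2 called Aars1 and Gars1 against Control and Aars1 alone against CW, and limma-voom called 0.

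Aars1, the alanyl-tRNA synthetase, had 541.2, 576.7 and 561.6 CPM in ESW cells, 525.0, 502.3 and 522.7 CPM in CW cells, and 538.4, 515.8 and 506.2 CPM in Control cells. In CPM the ESW libraries lay above all others, by less than 3 CPM at the closest. In TPM they lay at 226.7, 250.2 and 242.9 and overlapped the Control libraries, at 231.2, 219.2 and 211.3. Its log2 difference was 0.11 against Control, with a 95% interval of 0.03 to 0.19 (adjusted p = 0.0912 by edgeR), and 0.12 against CW, with an interval of 0.04 to 0.20 (adjusted p = 0.0662). Gars1, the glycyl-tRNA synthetase, had 294.0, 292.5 and 280.6 CPM in ESW cells, 277.4, 263.9 and 269.2 CPM in CW cells, and 271.9, 266.8 and 266.1 CPM in Control cells, again with no overlap. It differed by 0.11 against Control (adjusted p = 0.0753) and 0.10 against CW (adjusted p = 0.104). Sars1, Wars1, Nars1, Cars1 and Eprs1, which charge serine, tryptophan, asparagine, cysteine, and glutamate with proline, differed by 0.02 to 0.06 against Control and by 0.01 to 0.08 against CW. In TPM the ESW libraries of Gars1, Sars1, Nars1, Cars1 and Eprs1, 5 of the 7 synthetases, lay above all Control libraries. Those of 2 lay above all CW libraries. In CPM these numbers were 3 and 2, where 13.3% and 14.9% of all tested genes were higher without overlap. The share over all genes in TPM was not counted.

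Averaged within a library, the roles moved little. Relative to the Control mean, the transporters' mean log2 CPM was 0.05, 0.09 and 0.11 in ESW replicates 1, 2 and 3, then 0.04, -0.04 and 0.00 in CW, and 0.05, -0.05 and 0.00 in Control. The lowest ESW library thus lay at the height of Control replicate 1. The synthetases' mean was 0.05, 0.09 and 0.04 in ESW, 0.06, -0.05 and 0.00 in CW, and 0.02, -0.01 and -0.01 in Control, so that CW replicate 1 lay among the ESW libraries. Replicates of a group were close, with a median coefficient of variation over the list of 3.34% in ESW, 3.0% in CW and 2.37% in Control, against 5.85%, 5.78% and 6.03% over all tested genes. The listed genes are more abundant than most, and the comparison was not matched for that. CW replicate 1, the library with the fewest reads, was the highest of the CW libraries for 23 of 30 genes (76.7%), where it was highest for 36.6% of all tested genes. Leaving out CW replicate 1 ended the Ddit3 call against CW, left those of Atf5 and Slc1a4 in place and added Cebpb as higher. The Ddit3 call was also lost without CW replicate 2 or CW replicate 3, and those of Atf5 and Slc1a4 without CW replicate 2. Any fit with fewer libraries has less power, so these fits cannot show a part particular to CW replicate 1.

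**Figure D4:**
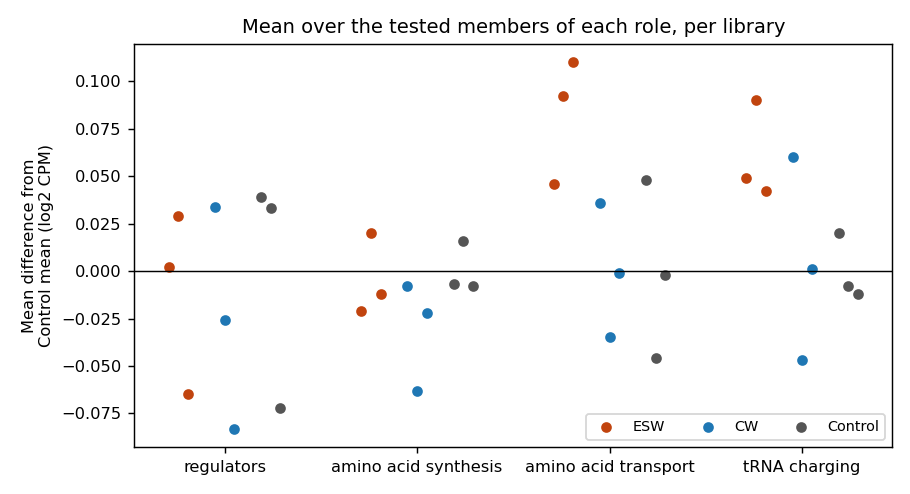
Mean over the genes of each role of log2 CPM minus the Control mean, with 1 point for each library of ESW, CW and Control. Transport lies at 0.05 to 0.11 in ESW, against -0.05 to 0.05 in Control, and synthesis stays between -0.06 and 0.02 in all libraries.

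Genes with and without a core match are given side by side. In ESW against Control the 9 with a match had a median log2 difference of 0.03 and 1 call, Slc1a4, and the 18 tested without one had 0.01 and 1 call, Ddit3. In ESW against CW the medians were 0.03 with a match and 0.02 without. Slc1a5 had no promoter sequence and is in neither group. The difference between genes with and without the core was not tested.

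Upstream of ATF4, 2 of the 14 listed genes of eIF2 and its regulators were called, both lower in ESW cells than in either other group, and 0 were called in CW against Control. Of all tested genes 3.28% were called lower in ESW against Control and 3.99% in ESW against CW. At an unadjusted p under 0.05 there were 2 of the 14 in ESW against Control, 5 in ESW against CW and 1 in CW against Control. Of the 14706 tested genes, 3357, 3514 and 1452 had such a p in that order. DESeq2 called 1 in CW against Control, Ppp1cb, lower, while limma-voom called 0. Both genes called in the ESW comparisons encode subunits of eIF2 itself. Eif2s1, the alpha subunit that the stress kinases phosphorylate, had 112.5, 118.5 and 110.4 CPM in ESW cells, 131.3, 132.5 and 131.1 CPM in CW cells, and 131.2, 140.9 and 137.7 CPM in Control cells. Every ESW library lay below every other library. The log2 fold change was -0.26 ± 0.04 against Control (SE, n = 3 against 3; adjusted p = 0.000776 by edgeR) and -0.21 ± 0.04 against CW (adjusted p = 0.00481). These calls were kept in all 17 alternative settings, the length offsets and the 9 fits without 1 library included.

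Eif2s2, the beta subunit, had 275.5, 279.4 and 251.3 CPM in ESW cells, 331.9, 310.8 and 308.3 CPM in CW cells, and 303.5, 314.9 and 335.8 CPM in Control cells, without overlap of ESW and the others. Its log2 fold change was -0.24 ± 0.05 against Control (adjusted p = 0.00369 by edgeR) and -0.24 ± 0.05 against CW (adjusted p = 0.00547). With length offsets the log2 fold change against Control was -0.19 (adjusted p = 0.0553). The gamma subunit Eif2s3 differed by -0.06 against Control and -0.01 against CW and was not called.

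The 4 eIF2 kinases were not called in any comparison. Against Control and against CW, the log2 differences were 0.09 and 0.13 for Eif2ak1 (HRI, the heme-regulated kinase), 0.00 and -0.01 for Eif2ak2 (PKR, activated by double-stranded RNA), 0.02 and 0.02 for Eif2ak3 (PERK, of the endoplasmic reticulum), and -0.04 and -0.12 for Eif2ak4 (GCN2, activated by uncharged tRNA). Of these the lowest adjusted p was 0.111, for Eif2ak1 against CW. Ppp1r15b, the constitutive subunit that directs a phosphatase to eIF2, differed by -0.05 against Control and 0.03 against CW and was not called. Kinase activity depends on phosphorylation, which RNA levels do not show.

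Of 25 other known ATF4 targets, 22 were tested, and in ESW against Control 2 were higher, 1 was lower and 19 were not called by edgeR, where 4.76% of all tested genes were called higher and 3.28% lower. In ESW against CW 2 were higher and 20 were not called by edgeR, where 4.15% of all genes were called higher, and DESeq2 also called Vegfa lower. In CW against Control 0 were called by edgeR, DESeq2 or limma-voom, where edgeR called 0.177% of all tested genes. At an unadjusted p under 0.05 there were 4 in ESW against Control, 6 in ESW against CW and 4 in CW against Control. Of the 14706 tested genes, 3357, 3514 and 1452 had such a p in that order. The median log2 differences of the 22 in these 3 comparisons were 0.04, 0.05 and -0.02. Both higher genes encode amino acid transporters. Slc38a2 (SNAT2), a carrier of small neutral amino acids, had 1189, 1159 and 1195 CPM in ESW cells, 1046, 1067 and 1067 CPM in CW cells, and 1121, 1087 and 1049 CPM in Control cells. In CPM every ESW library lay above every other, at 0.12 ± 0.04 against Control (adjusted p = 0.0373 by edgeR) and 0.16 ± 0.04 against CW (adjusted p = 0.0106). In TPM the ESW libraries, at 540.0, 564.1 and 572.3, overlapped the Control libraries, at 545.4, 516.1 and 498.5. They lay above the CW libraries, at 516.6, 518.8 and 499.9 TPM. The call against Control was kept in 8 of 17 alternative settings. It was lost without each single ESW replicate, CW replicate 3, Control replicate 2 or Control replicate 3, with adjusted p up to 0.16. It was also lost with length offsets (adjusted p = 0.158 by edgeR), where the log2 fold change was 0.09. The call against CW was lost only without ESW replicate 3 (adjusted p = 0.069).

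Slc6a9 (GLYT1), a glycine carrier, had 31.7, 33.2 and 31.0 CPM in ESW cells, 29.0, 27.9 and 24.8 CPM in CW cells, and 25.8, 27.0 and 26.8 CPM in Control cells. The ESW libraries lay above all others, at 0.27 ± 0.06 against Control (adjusted p = 0.00945 by edgeR) and 0.23 ± 0.06 against CW (adjusted p = 0.0232). The call against Control was kept without any single library and lost with length offsets, at 0.0659, where the log2 fold change was 0.23. The call against CW was lost without ESW replicate 2, ESW replicate 3, CW replicate 2 or CW replicate 3, with adjusted p up to 0.139, and with length offsets, at 0.0596, where the log2 fold change was 0.22.

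**Figure D5:**
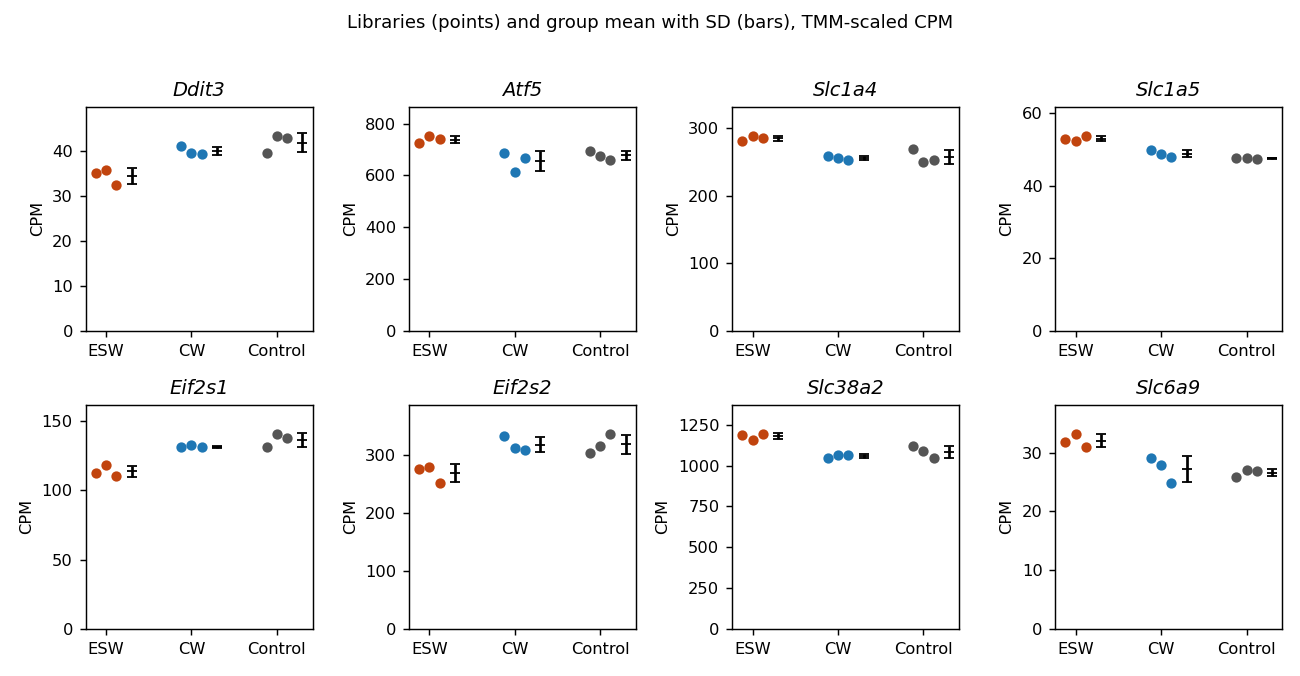
Level in CPM (vertical axis, from 0) of the 4 listed genes called in at least 1 comparison and of Eif2s1, Eif2s2, Slc38a2 and Slc6a9, with a point for each library and a bar for the mean and SD of ESW, CW and Control. Ddit3 lies at 32.5 to 35.8 CPM in ESW and 39.5 to 43.4 CPM in the other groups; Slc1a4 lies at 280.8 to 287.9 CPM in ESW and 250.1 to 268.4 CPM in the others.

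Cth, which makes cysteine from cystathionine, was lower in ESW than in Control cells, at 33.6, 32.3 and 31.3 CPM against 37.3, 35.5 and 36.3 CPM, with 33.7, 33.9 and 33.2 CPM in CW cells. Its log2 fold change was -0.17 ± 0.05 (adjusted p = 0.0439 by edgeR), a call kept in 4 of 17 settings. It was lost without any single library other than ESW replicate 1, with adjusted p up to 0.181. The stress factor Atf3 differed by -0.14 against Control and -0.26 against CW (adjusted p = 0.519 and 0.191), the cystine carrier Slc7a11 by -0.16 and 0.03, and Sesn2, an inhibitor of mTORC1, by 0.04 and 0.09, none of them called. Fgf21, a secreted target, had 2 reads over all libraries and was not tested.

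Of 13 other cytosolic aminoacyl-tRNA synthetase genes, 1 was called higher in ESW than in Control cells, where 4.76% of all tested genes were called higher. In ESW against CW and in CW against Control 0 were called by edgeR, DESeq2 or limma-voom. Of all tested genes edgeR called 8.14% and 0.177% there. Each of these comparisons had 1 gene at an unadjusted p under 0.05, against 3514 and 1452 of the 14706 tested genes. In ESW against Control 4 of the 13 had such a p, against 3357 of all tested genes. The called gene was Farsa, a subunit of the phenylalanyl-tRNA synthetase, with 55.5, 57.4 and 60.0 CPM in ESW cells, 55.7, 54.6 and 53.5 CPM in CW cells, and 51.7, 53.2 and 51.1 CPM in Control cells. Its log2 fold change was 0.15 ± 0.05 (adjusted p = 0.0469 by edgeR), a call kept in 4 of 17 settings. It was lost without any single library other than ESW replicate 1, with adjusted p up to 0.226 there. The median log2 difference of these synthetases was 0.04 against Control and 0.05 against CW, close to that of the 7 listed ones.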

How the data were processed

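Total RNA of 9 libraries of H9c2(2-1) cells was read on an Illumina NovaSeq X Plus, per the labels' protocols. Salmon 1.10.3 and DESeq2 (no version) are named in the submitters' processing notes. Per the file headers, each deposited table gives an estimated count, a TPM, a length and an effective length for each of 114122 transcripts. The estimated counts deposited by the authors are fractional, since Salmon divides reads shared by transcripts. The deposited TPM values were scaled by the authors' software to 1 common sum. The effective length, another kind of value and as deposited, is a transcript's length as adjusted by Salmon for that library; it exceeded the length for 21.5% of transcripts in Control replicate 1. Build, annotation release, bias options and use of strand are not given in the sources used here. Genes that overlap or have close copies may share reads.

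All transcripts were matched by accession to a RefSeq gene table (GRCr8). Estimated counts and TPM were summed over 36856 gene symbols, and the counts were then rounded. Totals of 26748673 to 48574618 reads set the precision, and the floor of 3 reads covers counting error only. The main test was edgeR 4.0.16 (R 4.3.3; quasi-likelihood, TMM, filterByExpr) with all 9 libraries in 1 model and 6 residual degrees of freedom. P-values were adjusted by Benjamini-Hochberg over 14706 genes and called under 0.05. Intervals are 95%. The common biological coefficient of variation was 4.84%. The test was also run on simulated counts with 200 changed genes, and the outcome is not reported here. The simulated folds were all larger than those of the called list genes. That run therefore cannot speak for calls of this size, or for the treatment of transcript length.

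Alternatives were DESeq2 1.42.0, limma-voom 3.58.1, DESeq2 size factors, no filter, a filter of 1 CPM in 3 libraries, effective-length offsets, only the 2 groups compared, a replicate block, and each library left out. Named genes are all 31 list genes, genes of the other lists called in at least 1 comparison (at most 6 for each list and comparison), and Atf3, the eIF2 kinases, Ppp1r15b, Slc7a11, Sesn2 and Fgf21; Eif2s3, Ppp1cb, Vegfa and Iars2 were named after their values were seen. Promoter sequence of 1 gene with a match is not reported here. The members and lists were chosen with earlier results of these data known.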

Additional observations from a re-analysis of the deposited data

How the results depend on the processing

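No called result reversed its direction under any alternative. Listed genes called higher in ESW against Control numbered 2 in the main test, 5 with DESeq2 and 0 with length offsets, and those called lower 1 and, with offsets, 0. Against CW the higher genes numbered 2, 4 without a filter and 0 with offsets, and the lower gene 1 and, with offsets, 0. All genes called in ESW against Control numbered 1183, and 440 with offsets. In CW against Control they numbered 26, against 273 without a filter, 67 with DESeq2, 1 with offsets and 16 with only those 2 groups. Leaving out 1 library at a time, listed genes called higher ranged from 0 to 5 against Control and 0 to 3 against CW, those called lower from 1 to 1 and 0 to 1, and both from 0 to 0 in CW against Control. Over all genes the ranges were 397 to 1544 for ESW against Control, 314 to 1486 for ESW against CW and 5 to 51 for CW against Control. Higher and lower calls over all genes in ESW against Control were 700 and 483, against 776 and 754 without a filter, 645 and 601 with a filter of 1 CPM, and 782 and 762 without Control replicate 1. In ESW against CW they were 610 and 587, against 505 and 708 with a filter of 1 CPM. Same-numbered libraries did not deviate together (correlations of -0.118 to 0.04 across genes), so the numbers were not taken to pair them. With the replicate block 971, 949 and 25 genes were called in the 3 comparisons, and Cebpb was added to the higher genes against Control (adjusted p = 0.0255 by edgeR) and against CW (0.0419). The cause of these shifts was not tested. With 22 reads in all libraries together, Gdf15 was not tested in the main fit.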

Other observations

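The mitochondrial aminoacyl-tRNA synthetases, which charge the tRNAs of mitochondrial translation, were not called in any comparison. All 17 were tested, and 0 were called by edgeR. At an unadjusted p under 0.05 there were 5 in ESW against Control, 1 in ESW against CW and 1 in CW against Control. In that order, 3357, 3514 and 1452 of the 14706 tested genes had such a p, and 8.04%, 8.14% and 0.177% were called. The median log2 differences of the 17 in the same order were 0.05, 0.005 and 0.03. DESeq2 called 1, Iars2, higher in ESW against Control, and limma-voom called 0. None of the 16 with a promoter sequence held the core TGATGNAA.

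The 12 genes of the unfolded protein response of the endoplasmic reticulum, chaperones and sensors that stress in that compartment induces beside ATF4, were not called either. By edgeR 0 passed in all 3 comparisons, with 2 at an unadjusted p under 0.05 in each ESW comparison and 0 in CW against Control. Of the 14706 tested genes, 3357 had such a p in ESW against Control, 3514 in ESW against CW and 1452 in CW against Control. In that order 8.04%, 8.14% and 0.177% were called. DESeq2 and limma-voom also called 0 of the 12. The medians of the 12 were -0.03 in ESW against Control, 0.01 in ESW against CW and -0.02 in CW against Control.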
